A study of Mus musculus with 6 samples.

Results

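Fibroblast and stromal matrix transcripts were followed in mouse pancreatic tumor cells sorted from tumors that had been treated with a combination immunotherapy or left as controls. The set held 36 genes chosen by symbol, namely collagens, other matrix proteins, collagen crosslinking enzymes, and genes of fibroblasts and pericytes. All 36 were found among the 24493 genes of the deposited table. Bulk RNA sequencing had been done on 6 libraries of the line designated 6419c5 in the titles, grown as subcutaneous tumors in C57BL/6 mice. In the GAFCP group, 2 libraries came from tumors given gemcitabine and abraxane, both chemotherapy drugs, with a CD40 agonist and blockade of CTLA-4 as well as PD-1. The control group had 4 libraries from tumors without that combination. Neither dose and timing nor the age of the mice or the sort marker is stated in the labels. Values are in TPM, a length-corrected unit with the same total in every library, so levels of different genes can be compared, but sequencing depth is unknown. Whether each library is a separate mouse is not stated, so p-values reflect only the variation among these libraries, which could be technical.

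Stroma is the connective tissue of a tumor. Fibroblasts secrete fibrillar collagens, which proteoglycans space and lysyl oxidases crosslink into fibers, while collagen IV and its partners form the basement membrane under epithelia and around vessels. Pericytes wrap small vessels, and fibroblasts that take up contractile proteins are called myofibroblasts. Pancreatic cancer is known for an abundant fibrous stroma, and carcinoma cells themselves also make some matrix proteins, fibronectin and collagen XVIII among them.

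The stromal transcripts split by direction between the groups. Of the 36 genes, 15 were higher with GAFCP, 11 were lower, 9 did not pass the test and Fap was too low to be tested. The test was limma on log2(TPM + 1) over all 13720 genes that reached 1 TPM in 2 or more libraries, with a Benjamini-Hochberg adjusted p under 0.05. That test called 47.5% of all genes tested, 19.0% as higher and 28.5% as lower. The median log2 change (GAFCP minus control) was 0.11 over the 35 tested stromal genes and -0.07 over all genes tested. The count of higher genes and the stromal median include Col14a1, which reached 1 TPM only in the GAFCP libraries. Both GAFCP libraries lay above every control library for 17 of the 36 genes and below for 11, where 24.7% and 36.9% of all genes tested did so, 61.6% in either direction. The 17 include Col14a1, and also Fap, which was not tested and so is not among the genes behind those shares. The increases were found for most fibrillar collagen chains, all 3 small leucine-rich proteoglycans, Thy1, Pdpn and Acta2. The decreases were found for fibronectin, Sparc, 2 of 3 collagen VI chains and Col18a1. In this bulk measurement more or fewer cells of a type and more or less RNA per cell cannot be told apart.

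**Figure D1:**
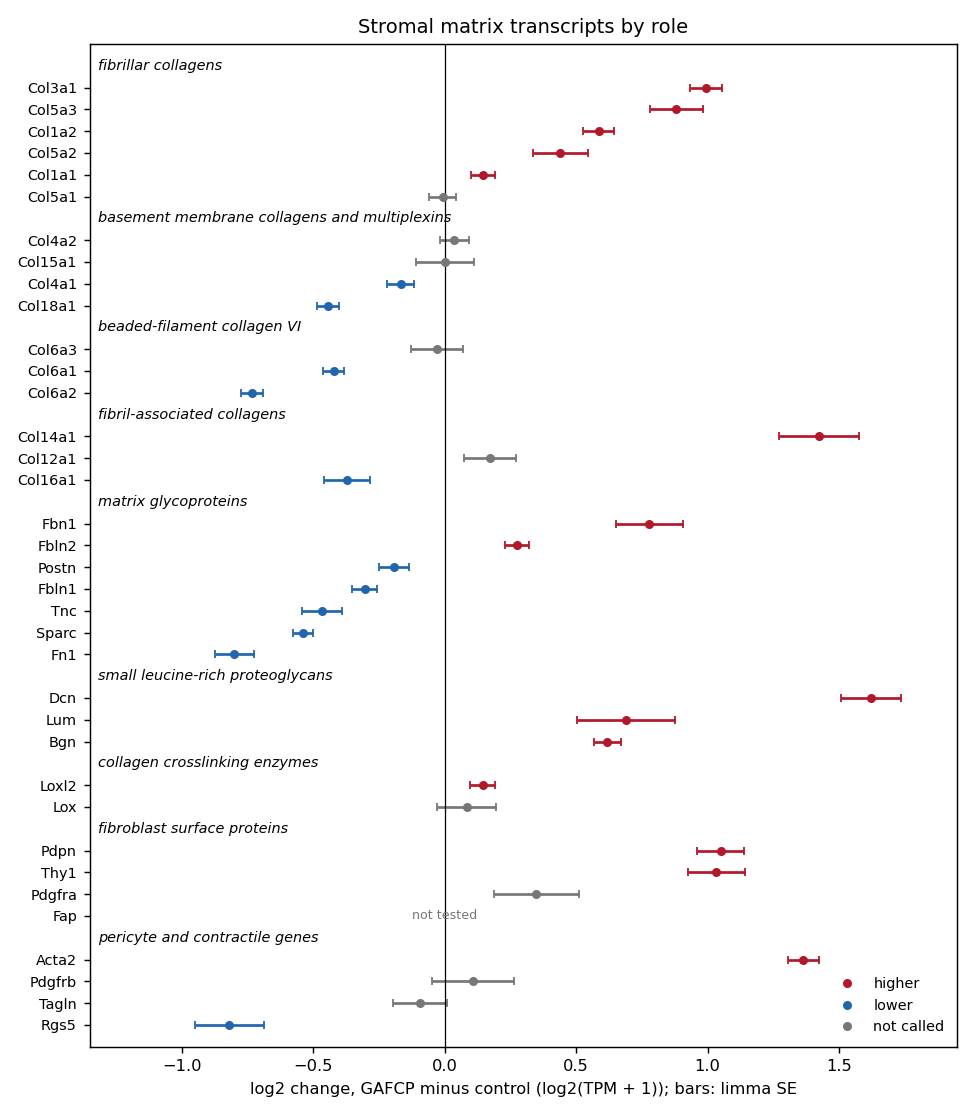
Log2 change (GAFCP minus control, on the log2(TPM + 1) scale) of each stromal gene, grouped by role, with the limma standard error as bars, from 2 GAFCP and 4 control libraries. Of the 35 genes tested, 15 were higher (red), 11 were lower (blue) and 9 did not pass (grey), and Dcn had the largest increase, 1.62, and Rgs5 the largest decrease, -0.82, among them.

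The labels name the sample as sorted tumor cells, and markers were read to see which cell types the libraries held. Krt8, a keratin of ductal epithelium, averaged 1544 ± 5.02 TPM in the GAFCP libraries (SD, n = 2) and 2321 ± 62.2 TPM in the control libraries (SD, n = 4). Krt19, its ductal partner, averaged 1021 ± 14.5 TPM with GAFCP and 1615 ± 33.1 TPM in controls. Epcam, an epithelial adhesion protein, averaged 1.54 ± 0.208 TPM with GAFCP and 12.8 ± 0.239 TPM in controls. These 3 do not stand for the whole list of 10 tumor epithelium markers, of which 6 were lower, 1 was higher and 3 did not pass. Krt18, another keratin, was among those that did not pass (1691 TPM with GAFCP, 1766 TPM in controls, limma adjusted p = 0.16). The fibroblast markers Fap and Pdgfra were far lower than the keratins in both groups. Fap, the fibroblast activation protease, was 0.649 and 0.535 TPM in the GAFCP libraries and 0.181 to 0.481 TPM in the controls. Pdgfra, the PDGF receptor of fibroblasts, was 1.64 and 1.07 TPM with GAFCP and 0.702 to 1.08 TPM in controls. It did not pass the test (adjusted p = 0.11). These 2 do not stand for all fibroblast genes. Of the 4 fibroblast surface genes of the set, 2 (Thy1 and Pdpn) were higher with GAFCP. Of 41 other fibroblast genes tested, 20 were higher and 10 lower, against 19.0% and 28.5% of all genes tested. That count of higher genes includes some that entered the test through their GAFCP libraries. The label of fibroblast genes describes how the set was chosen, and the data do not show which cells the transcripts came from.

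Promoters of a few genes that carry the split are shown, since matrix genes are often discussed as a jointly regulated program. They are the genes with the smallest p in each direction whose 250 bases before the RefSeq start (build GRCm38.p6) touch no annotated exon. Col3a1 (chr1:45311288-45311537, plus strand) and Bgn (chrX:73483351-73483600, plus strand) rose, and Col6a2 (chr10:76623631-76623880, minus strand) and Fbln1 (chr15:85205699-85205948, plus strand) fell. Capitals mark matches, on either strand, to CCAAT (the CCAAT box), TATAAA (the TATA box), GGGCGG (the GC box) or TGACTCA (the AP-1 site).
Col3a1: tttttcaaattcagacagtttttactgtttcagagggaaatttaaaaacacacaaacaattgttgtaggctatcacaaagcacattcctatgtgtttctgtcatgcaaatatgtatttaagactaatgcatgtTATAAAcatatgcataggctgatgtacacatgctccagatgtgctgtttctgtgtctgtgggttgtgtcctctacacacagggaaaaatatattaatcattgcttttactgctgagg
Bgn: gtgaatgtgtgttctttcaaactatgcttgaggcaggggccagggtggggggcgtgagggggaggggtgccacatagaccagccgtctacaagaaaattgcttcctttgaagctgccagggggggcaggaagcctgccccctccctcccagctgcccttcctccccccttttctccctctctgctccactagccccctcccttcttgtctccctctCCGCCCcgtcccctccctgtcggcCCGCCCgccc
Col6a2: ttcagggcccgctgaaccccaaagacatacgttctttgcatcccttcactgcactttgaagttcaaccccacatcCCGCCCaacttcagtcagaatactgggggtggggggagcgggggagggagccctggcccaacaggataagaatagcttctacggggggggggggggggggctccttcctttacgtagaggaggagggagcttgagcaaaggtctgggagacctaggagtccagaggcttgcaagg
Fbln1: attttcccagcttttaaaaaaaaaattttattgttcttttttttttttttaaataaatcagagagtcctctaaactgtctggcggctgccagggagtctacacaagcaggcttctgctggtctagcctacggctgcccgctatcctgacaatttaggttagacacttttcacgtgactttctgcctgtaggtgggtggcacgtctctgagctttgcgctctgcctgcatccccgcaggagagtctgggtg
Col3a1 held 1 TATAAA match, beginning 117 bases before the start, Bgn held 2 GGGCGG matches at 34 and 10 bases, Col6a2 held 1 GGGCGG match at 175 bases, and Fbln1 held none of the 4 motifs in this window. The table had windows for 23 of the 36 genes. GGGCGG was found in 5 of 8 genes that rose, in 5 of 10 that fell and in 32.7% of all 32851 windows. CCAAT was found in 2 of 8 that rose, 4 of 10 that fell and 33.8% of all windows, TATAAA in 1 of 8, 2 of 10 and 12.4%, and TGACTCA in 0 of 8, 1 of 10 and 4.46%. A gene with several windows was counted if any of them matched, while the percentages count single windows, so the measures are unlike. These matches describe the letters and are not evidence of binding.

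Fibrillar collagens, which form the load-bearing fibers, rose for 5 of 6 chains. Col3a1, the single chain of collagen III (chromosome 1, 45311538 to 45349706, mm10), was 100.4 and 102.2 TPM in the GAFCP libraries and 53.1, 51.3, 45.9 and 51.2 TPM in control libraries 1 to 4. Both GAFCP libraries stood far above every control, and the log2 change was 0.996 ± 0.06 (standard error; adjusted p = 8.2e-06 by limma). Col1a2, the second chain of collagen I (chromosome 6, 4504814 to 4541544), was 66.7 and 67.2 TPM with GAFCP and 45.5, 46.9, 40.9 and 43.9 TPM in controls, a log2 change of 0.59 ± 0.06 (adjusted p = 1.2e-04). The groups did not overlap.

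The partner chain of collagen I differed less. Col1a1 (chromosome 11, 94936224 to 94953042) was 100.9 and 99.98 TPM with GAFCP and 91.2, 91.9, 85.4 and 94.2 TPM in controls, a log2 change of 0.15 ± 0.05 (adjusted p = 0.033). This call was lost under 6 of 19 alternatives, among them leaving out either GAFCP library, with adjusted p between 0.0011 and 0.16 over all 19.

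Collagen V regulates fiber diameter, and its chains did not move together. Col5a3 was 6.80 and 6.49 TPM with GAFCP and 2.91 to 3.65 TPM in controls, a log2 change of 0.88 ± 0.10 (adjusted p = 2.6e-04). Col5a2 was 8.83 and 8.39 TPM against 5.11 to 6.58 TPM in controls (log2 change 0.44 ± 0.10, adjusted p = 0.010), and leaving out GAFCP library 1 ended the call (adjusted p = 0.077, within 0.0017 to 0.077 over the 19 alternatives). Col5a1, the most abundant of the 3, was 43.8 and 42.7 TPM with GAFCP and 40.9 to 45.0 TPM in controls, with overlapping groups (log2 change -0.01 ± 0.05, adjusted p = 0.91). Summed over the 6 fibrillar chains, the level was 327.2 ± 0.339 TPM with GAFCP (SD, n = 2) and 238.1 ± 11.3 TPM in controls (SD, n = 4).

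The small leucine-rich proteoglycans, which bind collagen fibrils and set their spacing, were higher for all 3 genes. Dcn, which encodes decorin (chromosome 10, 97479609 to 97518143), was 20.1 and 19.7 TPM in the GAFCP libraries and 5.56, 6.79, 6.09 and 4.84 TPM in the controls. The lowest GAFCP value was well above the highest control, and the log2 change of 1.62 ± 0.11 (adjusted p = 1.7e-05) was the largest of the 35 genes tested on that scale. Bgn, which encodes biglycan (chromosome X, 73483602 to 73495933), was 33.7 TPM in both GAFCP libraries and 20.6 to 22.1 TPM in controls (log2 change 0.62 ± 0.05, adjusted p = 4.4e-05). Lum, the lumican gene, was 4.05 and 4.03 TPM with GAFCP and 2.47, 2.97, 1.52 and 1.76 TPM in controls (log2 change 0.69 ± 0.19, adjusted p = 0.018). Control libraries 1 and 2 were higher for Lum than control libraries 3 and 4. The Lum call was lost without GAFCP library 1 or 2 and with the replicate number as a block, with adjusted p between 0.0013 and 0.089 over 18 alternatives.

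**Figure D2:**
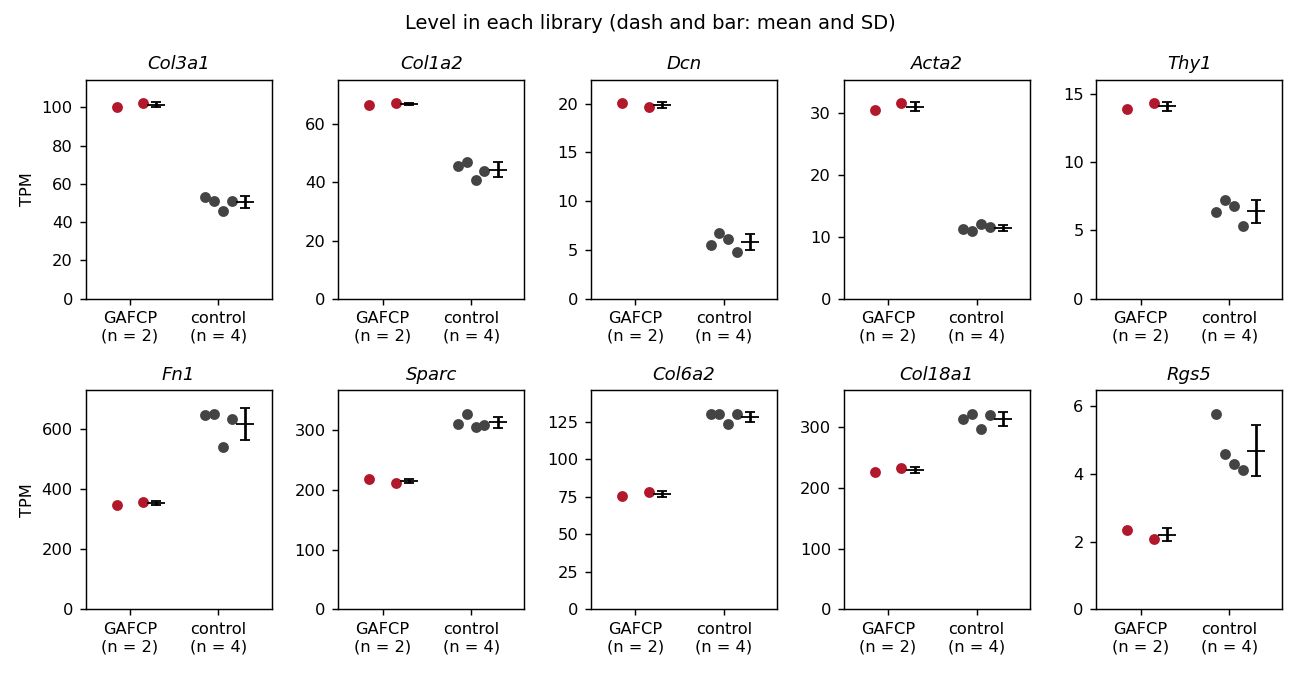
Level in TPM of 10 stromal genes in each of 2 GAFCP libraries (red) and 4 control libraries (grey), with the mean and SD beside the points and each axis starting at 0. For these 10 genes the GAFCP and control libraries did not overlap, with Col3a1, Col1a2, Dcn, Acta2 and Thy1 above the controls and Fn1, Sparc, Col6a2, Col18a1 and Rgs5 below.

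Basement membrane collagens and multiplexins did not rise. Col18a1, whose product carries the endostatin fragment (chromosome 10, 77052178 to 77166548), was 225.5 and 232.9 TPM with GAFCP and 313.2, 321.5, 296.1 and 319.1 TPM in controls, a log2 change of -0.44 ± 0.04 (adjusted p = 8.7e-05). Col4a1, a chain of the basement membrane network, was 105.3 and 106.7 TPM with GAFCP and 111.2 to 126.2 TPM in controls (log2 change -0.17 ± 0.05, adjusted p = 0.030). The Col4a1 call was lost under 7 of 19 alternatives, including median-of-ratios scaling and leaving out either GAFCP library, with adjusted p between 0.0039 and 0.15.

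Col4a2, its partner chain, was 59.1 and 61.4 TPM with GAFCP and 54.5 to 60.5 TPM in controls (log2 change 0.04 ± 0.05, adjusted p = 0.60). With median-of-ratios scaling Col4a2 passed as higher (log2 change 0.11, adjusted p = 0.035, within 0.035 to 0.95 over 19 alternatives). Col15a1, the other multiplexin, was 2.92 and 2.82 TPM with GAFCP and 2.51 to 3.19 TPM in controls, and its groups overlapped (adjusted p = 0.99).

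Collagen VI forms beaded microfibrils near cell surfaces, and 2 of its 3 chains fell. Col6a2 (chromosome 10, 76595762 to 76623630) was 75.3 and 78.2 TPM with GAFCP and 130.1, 129.8, 123.1 and 129.97 TPM in controls, a log2 change of -0.73 ± 0.04 (adjusted p = 4.8e-06). Col6a1 (chromosome 10, 76708792 to 76726168) was 192.4 and 200.7 TPM with GAFCP and 270.4, 269.3, 253.2 and 262.1 TPM in controls, a log2 change of -0.42 ± 0.04 (adjusted p = 8.5e-05). The groups were separate for both chains. Col6a3, the largest chain, was 6.73 and 7.16 TPM against 6.25 to 8.06 TPM in controls, with overlapping groups (log2 change -0.03 ± 0.10, adjusted p = 0.82).

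Fibril-associated collagens decorate the surface of fibers, and each of the 3 behaved differently. Col14a1 was 3.02 and 2.66 TPM with GAFCP and 0.676, 0.382, 0.370 and 0.321 TPM in controls, a log2 change of 1.42 ± 0.15 (adjusted p = 1.8e-04). Since every control was under 1 TPM, Col14a1 entered the test through its GAFCP libraries. Both of those libraries therefore had to lie above its controls. Col16a1 was 7.14 and 7.33 TPM with GAFCP and 8.59 to 10.6 TPM in controls (log2 change -0.37 ± 0.09, adjusted p = 0.0100), and it lost the call without GAFCP library 1 or 2 and with control libraries 3 and 4 alone (adjusted p between 0.0013 and 0.069 over 19 alternatives). Col12a1 was 4.44 and 4.57 TPM against 3.41 to 4.20 TPM in controls and did not pass (log2 change 0.17 ± 0.10, adjusted p = 0.19), although it passed as higher with median-of-ratios scaling (adjusted p = 0.036, within 0.036 to 0.44 over 18 alternatives).

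Ratios of collagen chain transcripts were read within each library, where scaling cancels. Col3a1 and Col1a1 belong to different collagens, and the other pairs are chains of the same collagen type. The pairs were chosen after the values were seen. Col1a1 over Col1a2 was 1.51 and 1.49 in the GAFCP libraries and 2.01, 1.96, 2.09 and 2.15 in the controls. Col3a1 over Col1a1 was 0.996 and 1.02 with GAFCP and 0.538 to 0.582 in controls, so collagen III transcripts equalled those of the main collagen I chain in the GAFCP libraries and were well under them in controls. Neither ratio overlapped between the groups.

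Ratios within the collagen IV, V and VI chains were also separate. Col4a1 over Col4a2 was 1.78 and 1.74 with GAFCP and 1.995 to 2.09 in controls. Col6a1 over Col6a2 was 2.56 and 2.57 with GAFCP and 2.02 to 2.08 in controls. Col5a1 over Col5a2 was 4.96 and 5.09 against 6.70 to 8.01 in controls. A ratio shows that 2 transcripts changed unequally and not which of them changed.

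**Figure D3:**
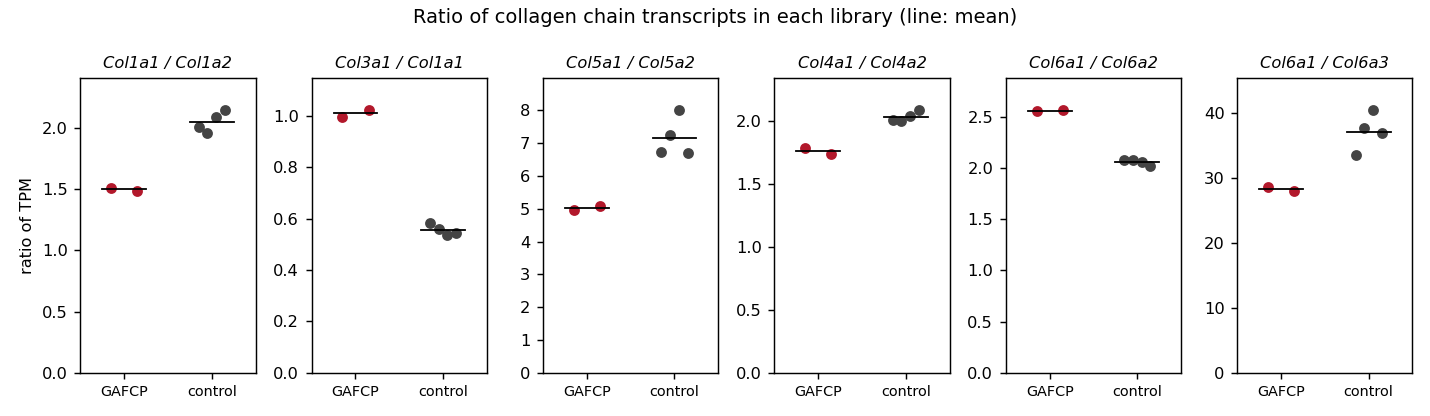
Ratio of TPM of 2 collagen chain genes in each of 2 GAFCP libraries (red) and 4 control libraries (grey), with the group mean as a line and each axis starting at 0. The groups are separate for the 6 ratios drawn, and Col3a1 over Col1a1 averaged 1.01 with GAFCP and 0.555 in controls.

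Matrix glycoproteins, which link collagen, cells and growth factors, gave 2 increases and 5 decreases among 7 genes. Fn1, which encodes fibronectin (chromosome 1, 71585520 to 71653200), was 347.6 and 357.3 TPM in the GAFCP libraries and 645.6, 649.5, 538.0 and 631.5 TPM in the controls, a log2 change of -0.80 ± 0.07 (adjusted p = 8.7e-05). Even control library 3, the lowest, was above both GAFCP libraries. Sparc, which encodes osteonectin, a collagen-binding protein (chromosome 11, 55394500 to 55423183), was 217.8 and 212.1 TPM with GAFCP and 311.0, 327.5, 305.2 and 308.6 TPM in controls, a log2 change of -0.54 ± 0.04 (adjusted p = 1.8e-05).

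Smaller decreases were found for Tnc, Fbln1 and Postn. Tnc, the gene of tenascin C, a matrix protein of wounds and tumors, was 10.1 and 10.4 TPM with GAFCP and 13.2 to 15.5 TPM in controls (log2 change -0.47 ± 0.07, adjusted p = 0.0015). Fbln1, the fibulin 1 gene, was 20.5 and 21.2 TPM against 25.4 to 26.4 TPM in controls (log2 change -0.30 ± 0.05, adjusted p = 0.0014). Postn, which encodes periostin, was 19.3 and 18.5 TPM with GAFCP and 20.9 to 22.7 TPM in controls (log2 change -0.19 ± 0.06, adjusted p = 0.025). The Postn call was lost under 6 of 19 alternatives, leaving out either GAFCP library among them, with adjusted p between 0.0047 and 0.17.

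The increases were in Fbln2 and Fbn1. Fbln2, the fibulin 2 gene (chromosome 6, 91212455 to 91272540), was the most abundant gene of the set, at 838.9 and 837.5 TPM with GAFCP and 695.4, 723.3, 647.2 and 705.7 TPM in controls (log2 change 0.28 ± 0.05, adjusted p = 0.0016). It did not pass with quantile normalization (log2 change 0.12, adjusted p = 0.059, within 5.6e-05 to 0.059 over 19 alternatives). Fbn1, which encodes the microfibril protein fibrillin 1, was 3.36 and 2.90 TPM with GAFCP and 1.21 to 1.65 TPM in controls (log2 change 0.78 ± 0.13, adjusted p = 0.0016). Without Fbln2 the summed level of the other glycoproteins was 620.5 TPM with GAFCP and 992.9 TPM in controls, a ratio of 0.625, where the sum of all 7 gave 0.865.

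Of the lysyl oxidases, which crosslink collagen, Loxl2 was 88.3 and 90.4 TPM with GAFCP and 76.2 to 83.6 TPM in controls (log2 change 0.15 ± 0.05, adjusted p = 0.039). Its call was lost under 6 of 19 alternatives, with adjusted p between 9.6e-04 and 0.20. Lox stayed low, at 2.84 and 2.39 TPM with GAFCP and 2.21 to 2.62 TPM in controls, with overlapping groups (adjusted p = 0.57).

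Among fibroblast surface genes, Thy1 and Pdpn rose. Thy1, which encodes a surface glycoprotein of fibroblasts that T cells and neurons also carry in mice (chromosome 9, 44043384 to 44048579), was 13.9 and 14.3 TPM with GAFCP and 6.33, 7.21, 6.78 and 5.29 TPM in controls, a log2 change of 1.03 ± 0.11 (adjusted p = 1.7e-04). Pdpn, which encodes podoplanin, also made by lymphatic endothelium and some macrophages (chromosome 4, 143267431 to 143299564), was 9.98 and 10.5 TPM with GAFCP and 4.72, 4.49, 3.95 and 4.63 TPM in controls, a log2 change of 1.05 ± 0.09 (adjusted p = 4.8e-05). Both genes were about doubled with no overlap of the groups, while Pdgfra and Fap, described above, did not exceed 1.64 TPM in any library.

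Of the 4 pericyte and contractile genes Acta2 rose, Rgs5 fell and Tagln and Pdgfrb did not pass. Acta2, the smooth muscle actin gene used to mark myofibroblasts (chromosome 19, 34241090 to 34255590), was 30.5 and 31.5 TPM with GAFCP and 11.2, 10.9, 12.0 and 11.6 TPM in controls, a log2 change of 1.36 ± 0.06 (adjusted p = 1.3e-06). Tagln, an actin-binding protein gene of the same contractile cells, was 5.23 and 4.72 TPM with GAFCP and 4.70 to 5.95 TPM in controls, with overlapping groups (log2 change -0.09 ± 0.10, adjusted p = 0.49). Rgs5, a signaling regulator of pericytes (chromosome 1, 169655501 to 169695813), was 2.35 and 2.07 TPM with GAFCP and 5.78, 4.60, 4.28 and 4.11 TPM in controls, a log2 change of -0.82 ± 0.13 (adjusted p = 0.0015). Pdgfrb, the PDGF receptor of pericytes and fibroblasts, was 1.52 and 1.47 TPM against 0.968 to 1.75 TPM in controls and did not pass (adjusted p = 0.60). The summed level of the 4 genes was 1.74 times as high with GAFCP, and 0.761 times without Acta2.

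The most abundant stromal genes mostly fell, and the low ones more often rose or did not pass. Among the 7 stromal genes averaging at least 100 TPM in controls, 6 fell and Fbln2 rose, with a median log2 change of -0.44. Among all 1307 genes tested at that level 42.3% were lower and 22.6% higher, with a median of -0.08. Among the 17 tested stromal genes under 10 TPM in controls 8 rose, 2 fell and 7 did not pass, with a median of 0.35, where 21.2% of 5294 genes at that level were higher and 18.3% lower. The 11 genes between these levels gave 6 increases and 3 decreases, with a median of 0.15. Of all 7119 genes tested at that level 16.7% were higher and 33.5% lower, with a median of -0.08. The level classes were set after the values were seen, and the added 1 TPM lowers the log2 changes of low genes. Col14a1, counted as risen, and Pdgfra are in the class under 10 TPM and entered the test through their GAFCP libraries. The classes use the control mean, which is also part of the change, so level and change are not independent here.

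**Figure D4:**
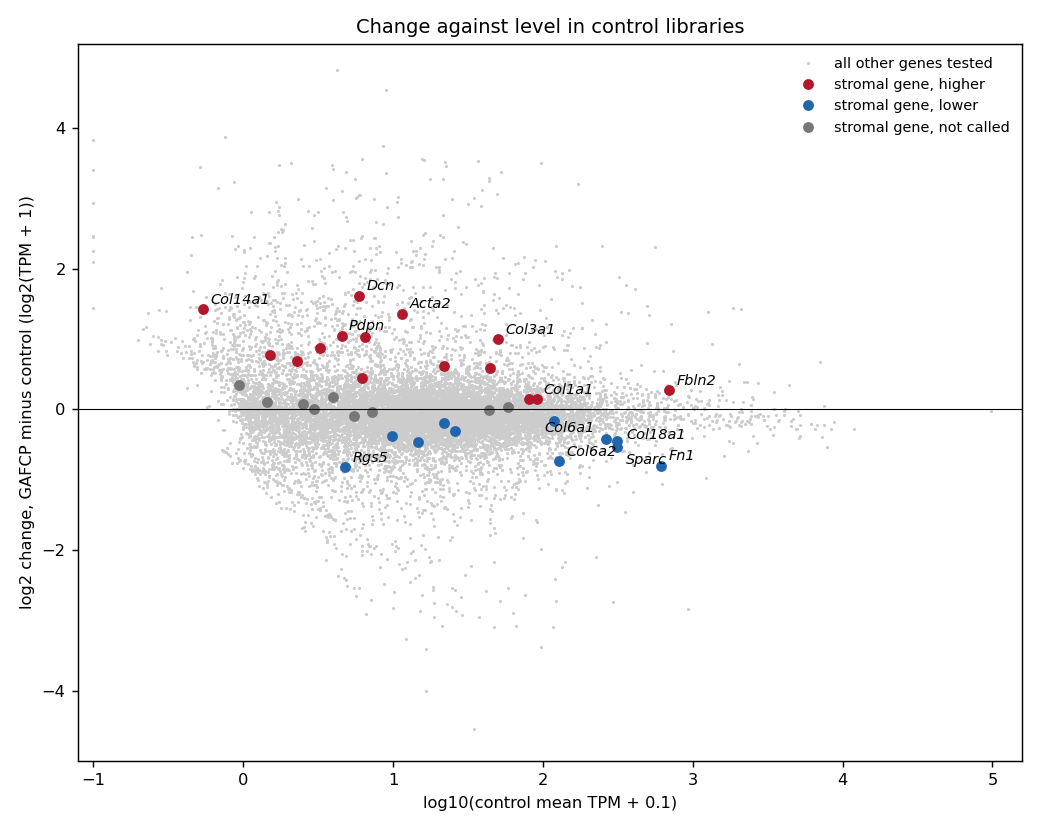
Log2 change (GAFCP minus control, on the log2(TPM + 1) scale) against log10 of the mean control TPM plus 0.1, with the stromal genes colored by call over all other genes tested (light grey). Of 7 stromal genes averaging at least 100 TPM in controls, 6 are lower and Fbln2 is higher. Dcn, Col14a1 and Acta2 lie at lower levels with the largest increases, and Col14a1 entered the test through its GAFCP libraries alone.

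Neighbors on the chromosome were compared, since several of these genes lie close together. In the GENCODE M21 annotation 4 pairs lay within 100 kb of each other. Col3a1 and Col5a2, 24.6 kb apart on chromosome 1, both rose, as did Dcn and Lum, 47.0 kb apart on chromosome 10. Col6a2 and Col6a1, 85.2 kb apart on chromosome 10, both fell. Col4a1 and Col4a2 on chromosome 8 are transcribed in opposite directions from starts that overlap by 22 bases in that annotation, and Col4a1 was called lower while Col4a2 was not called.

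Markers of other cell types moved in the same libraries, where 19.0% of all genes tested were higher and 28.5% lower. All 17 macrophage and monocyte markers were higher with GAFCP, with summed TPM of 3664 and 3671 in the GAFCP libraries and 1144 to 1201 in the controls, and none of them was at 0. All 10 pan-leukocyte markers were higher (summed TPM 317.4 and 328.7 with GAFCP, 107.8 to 127.7 in controls). Of 10 tumor epithelium markers 6 were lower and 1 higher (5107 and 5136 with GAFCP, 6701 to 7081 in controls). Of 16 endothelial markers 9 were tested, 3 were higher and 3 lower (39.1 and 39.3 with GAFCP, 41.1 to 47.3 in controls). Cdh5, the endothelial cadherin, averaged 1.49 TPM with GAFCP and 1.52 TPM in controls and did not pass. Pecam1, 1 of the 3 higher endothelial markers, averaged 2.79 TPM with GAFCP and 1.96 TPM in controls (limma adjusted p = 0.031), while 3 others were lower. Of 8 mesothelial markers 4 were tested, 2 were higher and 1 lower (853.8 and 869.0 with GAFCP, 756.1 to 819.7 in controls). Nearly all of this sum was Msln, at 842.3 TPM with GAFCP and 770.5 TPM in controls, so it hardly reflects the other markers. Among those, Wt1 was higher (11.9 TPM with GAFCP, 4.49 TPM in controls) and Nkain4 lower (6.19 TPM with GAFCP, 16.7 TPM in controls). Markers of 3 other tissues set control libraries 1 and 2 apart from 3 and 4. Summed adipocyte markers were 9.11 and 10.5 TPM with GAFCP and 45.8, 23.2, 9.85 and 10.2 TPM in the controls. Schwann cell markers summed to 1.32 and 1.87 TPM with GAFCP and 12.4, 15.7, 1.78 and 1.83 TPM in the controls. Skeletal muscle markers were 10.05 and 14.98 TPM with GAFCP and 4.54, 3.66, 10.3 and 10.8 TPM in the controls. Of 7 adipocyte markers 4 were tested and 2 were lower, of 7 Schwann cell markers 2 were tested and 1 was lower, and of 8 skeletal muscle markers 3 were tested and 1 was higher. Foxd3, a Schwann cell lineage marker, was at 0 in every library. The part of these cells in the stromal changes was not tested.

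**Figure D5:**
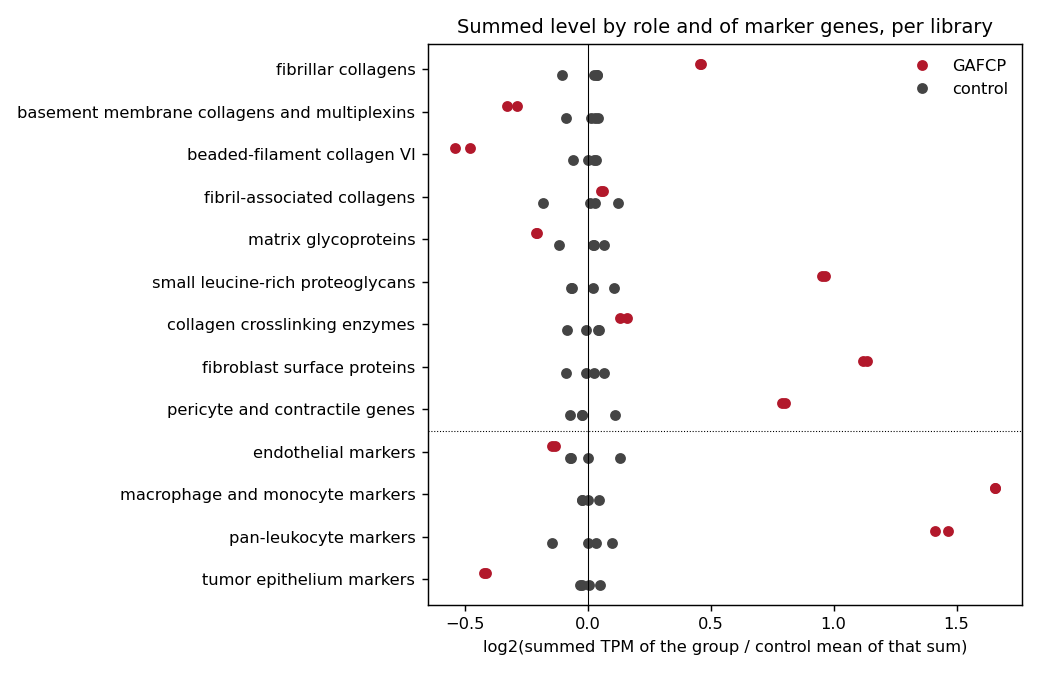
Summed TPM of each role group of stromal genes, and below the dotted line of marker genes of 4 cell types, in each GAFCP (red) and control (grey) library, as log2 of the ratio to the control mean of that sum. Proteoglycan and fibroblast surface sums lie near 1 with GAFCP, collagen VI near -0.5, and macrophage markers near 1.66.

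Other genes of the same pathways were counted from lists of symbols, where 19.0% of all genes tested were higher and 28.5% lower. In several of these lists the counts include genes that entered the test through 1 group alone. Among the higher genes, Des (pericyte list) and Tgfbr3 (growth signals) entered through their GAFCP libraries. Among the lower genes, Lama3 (basement membrane) and Tgfb2 (growth signals) entered through the controls. Of 50 other fibroblast genes 41 were tested, and 20 were higher and 10 lower with a median log2 change of 0.36. By smallest p these were led by Ecm1, an extracellular matrix protein gene (960.0 TPM with GAFCP, 497.6 TPM in controls; log2 change 0.95, adjusted p = 4.4e-07), Pdgfrl (19.0 TPM with GAFCP, 41.4 TPM in controls; log2 change -1.08, adjusted p = 9.1e-06) and Clec3b, the tetranectin gene (8.26 TPM with GAFCP, 0.914 TPM in controls; log2 change 2.27). Only 1 of 4 controls reached 1 TPM for Clec3b, so it entered the test through its GAFCP libraries. Such entry favors a difference without forcing one, so the call is not support for a change. Cxcl12, Aspn, Ogn and Scara5, also higher, entered through their GAFCP libraries too. The count of higher fibroblast genes and the median of that list include all of these. Of 31 tested genes for collagen synthesis and assembly 8 were higher and 12 lower, with a median of -0.13. Creb3l1, a transcription factor of collagen-secreting cells, fell to 17.7 TPM with GAFCP, against 35.5 TPM in controls (adjusted p = 2.2e-05). Pcolce, which aids procollagen cleavage, and Colgalt1, a collagen galactosyltransferase, changed by -0.42 each (adjusted p = 5.1e-05 for both).

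Collagens outside the set were mostly too low to test. Of 28 other collagen genes 6 were tested, 0 were higher and 3 lower. Col4a5, a further basement membrane chain, averaged 3.67 TPM with GAFCP and 10.5 TPM in controls (log2 change -1.30, adjusted p = 1.7e-05). Col11a1 and Col27a1, both fibrillar, changed by -0.38 and -0.22 (adjusted p = 0.012 and 0.025). At an unadjusted p under 0.05 none of the 6 was higher either.

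Of 16 tested genes of the basement membrane 4 were higher and 7 lower. The laminin chain gene Lamb3 averaged 20.8 TPM with GAFCP and 51.6 TPM in controls (log2 change -1.27, adjusted p = 2.9e-07), the nephronectin gene Npnt changed by -0.82 (adjusted p = 1.5e-05). Smoc1 averaged 3.81 TPM with GAFCP and 0.830 TPM in controls, and with 1 control at 1 TPM or more it too entered the test through its GAFCP libraries. Of 11 tested pericyte and smooth muscle genes 2 were higher and 4 lower, among them Tpm2, a tropomyosin gene, at 28.3 TPM with GAFCP and 46.5 TPM in controls (log2 change -0.70, adjusted p = 2.5e-05). Mcam, an adhesion molecule of pericytes and endothelium, changed by -0.67 (adjusted p = 0.0014) and Steap4 by 0.44 (adjusted p = 0.0011).

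Receptors and signals divided as well. Of 19 tested collagen and matrix receptors 9 were higher and 7 lower, and Itga5, the fibronectin-binding integrin chain, was 132.9 ± 1.26 TPM with GAFCP (SD, n = 2) and 70.2 ± 3.26 TPM in controls (SD, n = 4), a log2 change of 0.91 in the libraries where Fn1 fell. The syndecans Sdc4 and Sdc3 rose by 1.15 and 1.10 (adjusted p = 5.8e-07 and 3.0e-06). Of 22 tested growth signals and TGF-beta matrix targets 9 were higher and 8 lower. Ihh, a hedgehog ligand that acts on stroma, averaged 0.0596 TPM with GAFCP and 4.59 TPM in controls (log2 change -2.40). Ihh entered the test through the controls alone, where it was high, so the filter favored a difference and the call is not support for a change. Ltbp4 changed by -0.89 (adjusted p = 5.0e-06).

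The 4 control libraries did not sit evenly. Control library 3 was the lowest control for 25 of the 36 stromal genes, where it was the lowest for 56.2% of all genes tested. Without it the counts stayed at 15 higher and 11 lower. With control libraries 1 and 2 alone they were 14 and 11, and with control libraries 3 and 4 alone 14 and 8. The GAFCP libraries differed little from each other, but there were 2 of them, and leaving out library 1 gave 10 higher and 8 lower and leaving out library 2 gave 11 and 8; such a fit assumes that a lone GAFCP library varies like the controls. Of the 26 called genes 18 kept the same call in every one of the 19 alternatives that tested them, 10 higher and 8 lower.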

How the data were processed

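RNA was taken from sorted tumor cells, and sequencing was contracted out, per the labels' protocols. TPM values per gene were deposited by the authors, who used Salmon and mm10, per the submitters' processing notes. No version or annotation for Salmon is given in the sources used here, and how reads were divided among similar or overlapping genes was not examined. Depth is unknown because TPM keeps none, so the variation between libraries is the only measure of precision.

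Sample titles gave the groups. A gene was tested where 2 or more of the 6 libraries reached 1 TPM. limma 3.58.1 (R 4.3.3) was fitted to log2(TPM + 1), using empirical Bayes with trend and 4 residual degrees of freedom. Benjamini-Hochberg adjustment covered all 13720 genes, and calls were made under 0.05. The fit was tested on simulated data. Changes on this scale understate those of low genes. Sums and ratios of TPM have no test. The stromal genes, the pathway and marker lists and the alternatives were chosen with earlier results of these data known. Named genes are all 36 stromal genes, the 3 tested genes with the smallest p of each other list, and a few defining markers. One gene that this rule names is not reported here. Gene positions come from GENCODE M21 (GRCm38, mm10), matched by symbol for 36 of 36 genes, and promoters are RefSeq's (GRCm38.p6).

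Alternatives changed the pseudocount (0.1 and 5), filter, scaling, variance model, library weights and replicate block, and left out each library or pair of control libraries.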

Additional observations from a re-analysis of the deposited data

Results flagged for a closer look

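Among 46 sets of 4 control values examined (36 genes, 9 role sums and the sum of all), 5 held 1 library far from the other 3, where chance gives about 5% of sets. Control library 3 was low for Fn1 (538.0 TPM), Col4a2 (54.5 TPM), Col6a2 (123.1 TPM) and the summed fibrillar collagens (221.3 TPM). Control library 1 was high for Col14a1 (0.676 TPM). Without control library 3 Fn1 and Col6a2 remained lower with GAFCP and Col4a2 did not pass.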

How the results depend on the processing

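No called stromal gene changed sign under any of the 19 alternatives, and 8 of 26 lost the call in at least 1 of them. Of 9 tested but uncalled genes, 2 (Col4a2 and Col12a1) passed under median-of-ratios scaling. Sign changes were found in 6 uncalled genes. Col5a1 (log2 change -0.01) was 0.0617 with median-of-ratios scaling, 0.0275 with quantile normalization and 0.0285 with control libraries 3 and 4 alone. Col15a1 was -0.0164 with quantile normalization, -0.0182 rescaled without the 50 most abundant genes, -0.0916 with the replicate block and -0.0916 with control libraries 1 and 2 alone. Col6a3 was 0.032 with median-of-ratios scaling and 0.0523 with control libraries 3 and 4 alone, Pdgfrb -0.00254 with the replicate block and with control libraries 1 and 2 alone, and Tagln 0.00266 with control libraries 3 and 4 alone. Leaving out 1 library at a time gave -0.0365 to 0.00992 for Col5a1, -0.0444 to 0.0411 for Col15a1, -0.0848 to 0.0227 for Col6a3 and -0.00585 to 0.17 for Lox. The sum ratio of the pericyte and contractile genes was 0.761 without Acta2, an alternative chosen after seeing the data. The median of the stromal genes was 0.0395 with a pseudocount of 5 and -0.00796 where a mean of 5 TPM or more was asked, where fewer genes were tested. Leaving out 1 library gave 1715 to 2610 higher and 2514 to 4641 lower over all genes. For called genes of the other lists it gave 18 to 29 (fibroblast), 3 to 7 (pericyte), 11 to 18 (growth signals) and 1 to 3 (collagens). With that filter the fibroblast list had 13 and the pericyte list 2, with control libraries 3 and 4 alone the pericyte list had 3 and the collagens 1, and with no filter the collagens had 6. Median-of-ratios scaling gave 3532 higher and 3352 lower over all genes (51.3% higher) against 2606 and 3909 (40%), and 17 and 10 stromal genes. The cause of these shifts was not tested.

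Same-numbered libraries were not shown to be paired: the correlation over 13720 genes of GAFCP 1 minus 2 with control 1 minus 2 was -0.02. The replicate block gave 12 stromal genes higher and 10 lower. With 2 GAFCP libraries and unknown depth, small changes near the threshold are uncertain.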

Other observations

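The list of other fibroblast genes held changes in both directions, 20 higher and 10 lower of 41 tested, and those described here were chosen after their values were seen. The count of higher genes includes some that entered the test through their GAFCP libraries. Pi16, a marker of a broad fibroblast population in single-cell studies, was 7.48 and 7.94 TPM in the GAFCP libraries and 0.888 to 1.53 TPM in the controls (limma adjusted p = 1.8e-05). Mmp2, a gelatinase gene, was 11.8 and 13.3 TPM with GAFCP and 3.40 to 4.30 TPM in controls (adjusted p = 1.5e-05). Both genes lay above every control with GAFCP. Cxcl12, a chemokine of stromal cells, was 5.58 and 6.27 TPM with GAFCP and 0.563 to 1.39 TPM in controls, and with 1 control at 1 TPM or more it entered the test through its GAFCP libraries.

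Other genes of that list were lower. Cthrc1, which encodes a secreted collagen triple helix repeat protein, was 6.57 and 6.16 TPM with GAFCP and 12.1 to 15.1 TPM in controls (adjusted p = 9.5e-05). Efemp1, a fibulin family gene, was 69.2 and 70.2 TPM with GAFCP and 92.6 to 101.2 TPM in controls (adjusted p = 1.2e-04). Ddr2, a collagen receptor gene, was 2.59 and 2.69 TPM with GAFCP and 3.53 to 4.25 TPM in controls (adjusted p = 0.0079). The groups did not overlap for these 3 genes. Macrophage markers were higher in the GAFCP libraries, and their part in these values was not tested.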
